A study of Mus musculus with 6 samples.

Results

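The genes described here encode the proteins of the mitochondrial ribosome, and they were taken as the rows whose symbol begins with Mrpl or Mrps and a digit, pseudogene symbols left out. The rule took in 77 of the 17217 rows measured, 48 with large subunit symbols (Mrpl) and 29 with small subunit symbols (Mrps). RNA came from 3 libraries labelled Knockout (Cd74 -/-) and 3 labelled Control (Cd74 +/+), all from bone marrow-derived macrophages. Per the labels' protocols, femur marrow from mice aged 8 weeks was cultured in both groups with M-CSF (30 ng/mL), a cytokine that drives macrophage growth. The cells then received lipopolysaccharide (LPS, 100 ng/mL), a bacterial inflammatory stimulus, for 24 h. The protocol text speaks of wild-type mice for every library, so the genotype was read from titles and genotype labels. Knockout libraries are labelled batch 2 and Control libraries batch 1, so in everything that follows the effects of genotype and of batch cannot be told apart. The labels do not give the animal or culture behind each replicate, and p-values measure the spread between these libraries, which may be technical.

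Mitochondria carry their own ribosome, which makes only the few membrane proteins of the respiratory chain that mitochondrial DNA encodes. Its rRNAs are transcribed in the organelle, whereas all of its proteins are encoded in the nucleus, made in the cytosol and imported. The large subunit joins amino acids and holds the tunnel through which the new chain leaves, and the small subunit binds the mRNA and decodes it. Some of the proteins have counterparts in bacterial ribosomes and others are found only in mitochondria. Macrophages activated by LPS are known to lower mitochondrial respiration and lean on glycolysis.

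Values are TPM (transcripts scaled to a fixed library total), a level scaled by gene length, so comparisons between genes depend on the annotated length used. The 6 libraries held 35821725 to 57780071 reads recovered from the TPM values. Knockout replicate 3 stood apart, with counts that differed from the other Knockout libraries by 40.9 and 55.4 times counting noise (chi-square per degree of freedom), against 6.37 between those other libraries and 5.44 to 17.0 between Control libraries. Cd74, the deleted gene, stood at 65.3, 64.6 and 63.1 TPM in Knockout replicates 1 to 3, against 632, 593 and 594 TPM in Control replicates 1 to 3. The direction goes with the labels in every library, but just 3 of the 6 Cd74 values corresponded to whole numbers of reads at its annotated length. By contrast, the values of all 77 mitochondrial ribosomal protein genes were whole reads in all 6 libraries. All 10 listed macrophage markers were above the filter. Of these 5 were called higher (50%) and 1 lower (10%), against 18.5% higher and 10.1% lower over all tested rows. The summed level of the 10 markers was 13477 to 14927 TPM in Knockout libraries and 10010 to 10680 TPM in Control libraries. The largest part of the sum was Lyz2, with means of 8658 TPM in Knockout and 5373 TPM in Control libraries. The marker called lower was Adgre1, with means of 332 and 489 TPM in the same order (limma adjusted p = 0.00435). Of 7 neutrophil markers S100a8 was called higher and Csf3r lower, their summed level was 23.3 to 29.2 TPM in Knockout and 16.2 to 17.8 TPM in Control libraries, and the other 5 (S100a9, Ly6g, Elane, Mpo and Retnlg) have no row. Dendritic cell markers summed to 6.24 to 7.02 TPM in Knockout and 5.36 to 8.26 TPM in Control libraries with 0 calls. Of these 6 markers 4 have a row and 2 were tested. Of 4 listed markers each, 1 B cell, 2 erythroid and 1 stromal marker have a row. Those of each type summed to at most 0.720 TPM in Knockout and 1.04 TPM in Control libraries. The 4 T cell markers (Cd3d, Cd3e, Cd3g and Trac) have no row, so they give no measure of T cells. The part of these markers in the results below was not tested. In bulk RNA, fewer cells of a type and less RNA per cell cannot be told apart.

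All 77 genes passed the filter of a mean of at least 1 TPM and were tested, with 376 to 5577 reads per gene and library. Before the values, the promoter sequences of the 2 genes that rose most and the 2 that fell most are shown, to show the stretch in which motifs of general activators were searched. Each sequence is the 250 bases before the annotated start, 5′ to 3′ on the gene's strand, from RefSeq on build GRCm38.p6. Capitals mark matches to the ETS core CCGGAAG, the motif of the ETS factor GABP, in either orientation.
Mrpl49: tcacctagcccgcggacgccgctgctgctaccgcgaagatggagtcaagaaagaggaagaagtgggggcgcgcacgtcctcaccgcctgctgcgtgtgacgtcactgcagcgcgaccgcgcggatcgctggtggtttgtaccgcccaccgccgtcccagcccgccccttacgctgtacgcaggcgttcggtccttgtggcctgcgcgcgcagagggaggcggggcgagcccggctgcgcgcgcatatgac
Mrpl18: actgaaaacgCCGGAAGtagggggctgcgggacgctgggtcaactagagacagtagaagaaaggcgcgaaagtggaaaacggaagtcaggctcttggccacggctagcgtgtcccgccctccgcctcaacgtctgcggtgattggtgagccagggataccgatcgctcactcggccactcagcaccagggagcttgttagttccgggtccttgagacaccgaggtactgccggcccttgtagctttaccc
Mrpl24: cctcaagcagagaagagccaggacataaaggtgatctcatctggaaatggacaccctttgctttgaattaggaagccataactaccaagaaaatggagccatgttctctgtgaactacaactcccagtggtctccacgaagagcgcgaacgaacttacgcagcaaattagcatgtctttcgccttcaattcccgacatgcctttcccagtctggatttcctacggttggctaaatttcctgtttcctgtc
Mrpl27: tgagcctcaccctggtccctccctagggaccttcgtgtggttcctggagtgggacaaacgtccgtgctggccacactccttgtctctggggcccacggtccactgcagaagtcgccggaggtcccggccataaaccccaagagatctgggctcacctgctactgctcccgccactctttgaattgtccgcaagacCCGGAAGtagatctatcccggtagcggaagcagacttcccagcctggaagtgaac

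These windows lie at chr19:6057756-6058005 on the minus strand, chr17:12916092-12916341 on the minus strand, chr3:87919294-87919543 on the plus strand and chr11:94653541-94653790 on the plus strand, in the order printed. Mrpl18, which rose, has its match beginning 240 bases before the start, and Mrpl27, which fell, has its match beginning 55 bases before the start. The window of Mrpl49 holds no ETS core, but AAGATGGC, the core motif of the factor YY1, begins at base 17 after the start, beyond the stretch printed. Mrpl24 holds none of the 5 motifs searched.

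A promoter window from 250 bases before to 50 after the start was found for 68 of the 77 genes. The ETS core was present in 25 of these (36.8%), against 21.6% of 9124 tested rows with a window and 9.93% of all 27025 genes with one. AAGATGGC was present in 12 (17.6%), against 5.74% of tested rows and 3.19% of all genes. GCATGCGC, part of the palindrome bound by nuclear respiratory factor NRF1, was present in 8 (11.8%), against 6.19% of tested rows and 3.05% of all genes. The E-box CACGTG and the TATA box TATAAA were each present in 5 (7.35%), against 12.0% and 8.70% of tested rows and 8.09% and 15.7% of all genes. All motifs were searched on both strands, and a match describes letters in the window, not binding. The ETS core stood in 9 of 23 genes that rose, 2 of 4 that fell and 14 of 41 not called, and AAGATGGC in 5, 1 and 6 of the same genes.

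**Figure D1:**
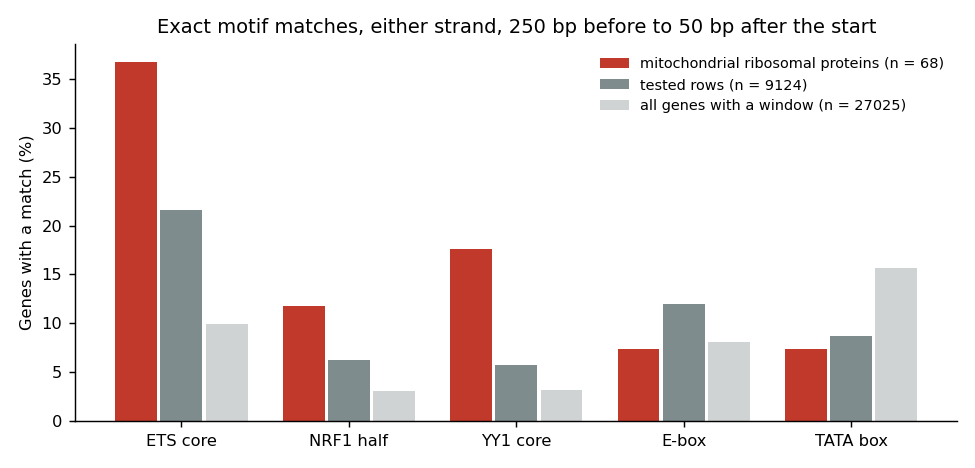
Percentage of genes (y axis) with at least 1 exact match to each of 5 motifs (x axis) in the promoter window, for mitochondrial ribosomal protein genes, all tested rows and all genes with a window. The 3 factor motifs on the left stand higher in mitochondrial ribosomal protein genes, with 36.8% against 21.6% of tested rows for the ETS core, while the E-box and TATA box do not.

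As a class these genes were expressed at moderate levels, and their mRNA was slightly higher in Knockout than in Control libraries. Their summed level was 4573, 4653 and 4946 TPM in Knockout replicates 1 to 3, against 4257, 4237 and 4345 TPM in Control replicates 1 to 3. Every Knockout library was above every Control library, with a difference of 10.4% between means of 4724 ± 196 and 4280 ± 57.7 TPM (SD, n = 3 each). These sums are as deposited. Median-of-ratios scaling divides values by 1.002 to 1.024 in Knockout and by 0.981 to 0.995 in Control libraries, so it would narrow the difference. The class made up 0.461% to 0.498% of the TPM in Knockout libraries and 0.424% to 0.435% in Control libraries.

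At an adjusted p under 0.05 in limma, rises were called in 24 (31.2%) and falls in 5 (6.49%), and 48 had no call. Among all 13034 tested rows 18.5% were called higher and 10.1% lower. The balance in the whole table depends on scaling, since 64.7% of its calls were higher as deposited, against 51.5% after median-of-ratios and 48.2% after upper-quartile scaling. The class kept more rises than falls under both scalings, with 22 and 5 and with 20 and 5. Its median log2 fold change was 0.09, against 0.04 for all tested rows, and was 0.05 and 0.04 under the scalings, where the medians of all rows were 0.003 and -0.01. Without Control replicate 3 the counts were 15 and 3, and 10.1% of all tested rows were then called higher.

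In 34 of the 77 genes (44.2%) all Knockout libraries lay above all Control libraries, and in 8 (10.4%) all lay below. The shares over all tested rows were 30.2% and 19.8%. The 3 genes below without a call were Mrpl1, Mrpl33 and Mrpl35. Rises were small, at 1.12-fold to 1.60-fold of the Control mean with a median of 1.28-fold, and the falls reached 0.741 to 0.875 of the Control mean. Knockout replicate 3 was the highest Knockout library in 47 of the 77 genes and in 20 of the 24 that rose, against 38.6% of tested rows. Without that library 22 genes rose and 4 fell.

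**Figure D2:**
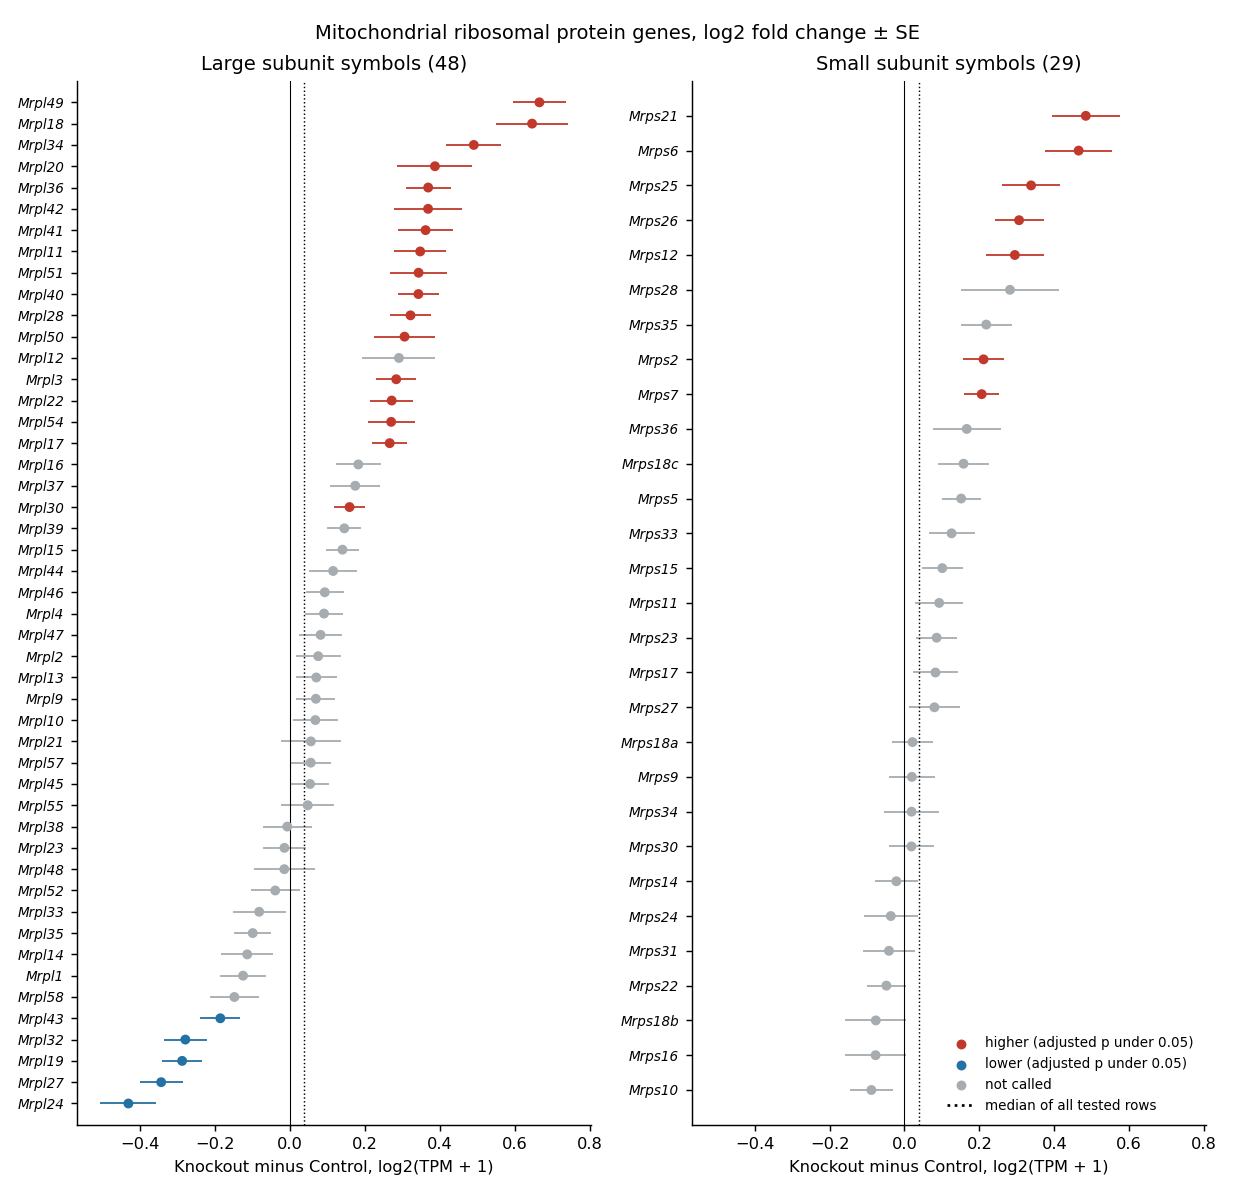
Log2 fold change of Knockout minus Control on the log2(TPM + 1) scale (x axis) with its standard error for each of 48 large and 29 small subunit symbols (y axis). Red and blue points are genes called higher and lower, grey points are not called, and the dotted line is the median of all tested rows (0.04). Mrpl49 stands highest at 0.67 and Mrpl24 lowest at -0.43, and all 5 blue points are in the large subunit panel. They are 10.4% of that panel, against 10.1% called lower over all tested rows.

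Of 48 large subunit genes 17 rose (35.4%), 5 fell (10.4%) and 26 were not called, while of 29 small subunit genes 7 rose (24.1%), 0 fell and 22 were not called. The lowest small subunit value was -0.09, that of Mrps10. The median log2 fold change was 0.09 in each subunit. Over all tested rows 18.5% were called higher and 10.1% lower, so the share of large subunit falls was near that of all rows. These counts describe the lists and the difference between subunits was not tested. Leaving out Control replicate 1, 2 or 3 left 4, 4 and 3 small subunit rises, and 12, 13 and 12 large subunit rises.

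Large subunit transcripts summed to 3119, 3176 and 3355 TPM in Knockout replicates 1 to 3, against 2928, 2907 and 2958 TPM in Control replicates 1 to 3. Small subunit transcripts summed to 1453, 1477 and 1591 TPM in Knockout replicates, against 1328, 1330 and 1388 TPM in Control replicates. Both sums, as deposited, were higher in every Knockout library, by 9.76% between means for the large and 11.7% for the small subunit. Scaling would narrow these differences too. The ratio of large to small was 2.15, 2.15 and 2.11 in Knockout replicates 1 to 3, and 2.20, 2.19 and 2.13 in Control replicates 1 to 3. Its means were 2.14 ± 0.0228 and 2.17 ± 0.0380 (SD, n = 3 each), and the groups overlapped. A large subunit gene typically had the higher TPM, with a median level of 63.2 over all libraries against 38.0 for a small subunit gene. Both medians depend on annotated lengths.

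**Figure D3:**
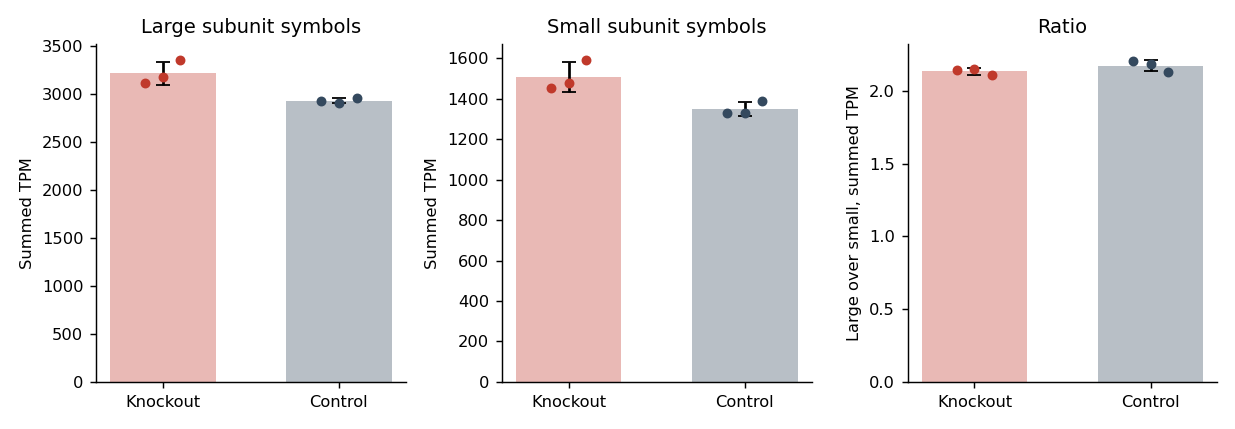
Summed TPM of large subunit symbols, of small subunit symbols, and their ratio (y axes) in Knockout and Control libraries (x axes), with points for libraries, bars for means and error bars for the SD (n = 3 each). Both sums are higher in all 3 Knockout libraries, and the ratios of 2.11 to 2.15 in Knockout overlap those of 2.13 to 2.20 in Control.

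Symbols do not always give the place of a protein. Mrps30 and Mrps18a are named as small subunit proteins but sit in the large subunit, and Mrps36 is now known as a subunit of the 2-oxoglutarate dehydrogenase complex, an enzyme of the citric acid cycle. Counted by place, 17 of 50 large subunit genes rose and 5 fell, and 7 of 26 small subunit genes rose and 0 fell, so the calls were the same in number. The ratio of summed levels by place was 2.33 ± 0.0279 in Knockout and 2.39 ± 0.0332 in Control libraries (SD, n = 3 each). These groups overlapped too, with 2.353 in Knockout replicate 2 and 2.350 in Control replicate 3. Mrps30 stood at 14.4, 14.0 and 14.3 TPM in Knockout and 13.8, 13.6 and 14.7 TPM in Control replicates, with overlapping groups and a log2 fold change of 0.02 (limma adjusted p = 0.841).

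Mrps18a, Mrps18b and Mrps18c are paralogs of each other, of which the first lies in the large and the others in the small subunit. None of the 3 was called. Mrps18a averaged 38.3 ± 1.45 TPM in Knockout and 37.7 ± 1.73 TPM in Control libraries, Mrps18b 59.2 ± 4.98 and 62.5 ± 4.98 TPM, and Mrps18c 49.2 ± 2.39 and 44.1 ± 3.32 TPM in the same order of groups (SD, n = 3 each). Their log2 fold changes were 0.02, -0.08 and 0.16, with limma adjusted p of 0.797, 0.511 and 0.126. Mrps36 averaged 52.8 ± 4.55 TPM in Knockout and 47.0 ± 4.73 TPM in Control libraries and was not called either (adjusted p = 0.208).

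Mean levels of the individual genes ranged over 23.1-fold. The highest mean was 199 TPM and the lowest 8.62 TPM. Mrpl52, a protein of the central protuberance, stood at 185, 196 and 209 TPM in Knockout and 210.1, 188 and 208 TPM in Control replicates, with a log2 fold change of -0.04 (adjusted p = 0.684). Mrps23 stood at 118, 117 and 131 TPM in Knockout and 115, 113 and 116 TPM in Control replicates and was not called (adjusted p = 0.276). Both were among the 5 most abundant, with Mrps21, Mrpl24 and Mrpl12.

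The 5 least abundant genes by TPM were Mrpl33, Mrps35, Mrpl48, Mrps30 and Mrps25, each with an annotated exon length above that of the median member (2533 bp). Mrpl33, of 7326 bp, had 760 to 1088 reads per library, while Mrpl54, of 825 bp and 61.6 TPM, had 515 to 1007. The part of annotated length in the range and ranking of levels was not tested. Mrpl33 stood at 8.29, 8.22 and 8.52 TPM in Knockout and 9.16, 8.86 and 8.65 TPM in Control replicates. Its groups did not overlap, but the log2 fold change of -0.08 was not called (adjusted p = 0.415). Mrps35 stood at 11.2, 11.0 and 11.7 TPM in Knockout and 9.86, 9.12 and 9.71 TPM in Control replicates, also without overlap, and missed the threshold (0.22, adjusted p = 0.0512). Mrpl48 averaged 12.3 ± 1.12 and 12.4 ± 0.439 TPM in Knockout and Control libraries (SD, n = 3 each). The order of levels was much the same in both groups, with a rank correlation of 0.966 across the 77 genes, which share libraries and gene lengths.

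The largest rises in the large subunit were in Mrpl49, Mrpl18 and Mrpl34. Mrpl49, a protein without a bacterial counterpart, stood at 69.8, 72.9 and 80.2 TPM in Knockout replicates 1 to 3, against 43.1, 48.0 and 48.3 TPM in Control replicates 1 to 3. All Knockout libraries were above all Control libraries, with a log2 fold change of 0.67 (SE 0.07, limma adjusted p = 0.00264). Mrpl18, whose bacterial counterpart binds an rRNA of the central protuberance, stood at 85.1, 86.8 and 107 TPM in Knockout and 54.6, 60.3 and 61.5 TPM in Control replicates. Knockout replicate 3 was the highest of all 6 libraries, and the log2 fold change was 0.65 (SE 0.10, adjusted p = 0.00553). Mrpl18 shares 10.1% of its exon bases with Tcp1 on the opposite strand, which had a log2 fold change of 0.23. Mrpl34, a protein with a bacterial counterpart, stood at 85.0, 93.0 and 103 TPM in Knockout and 64.9, 68.0 and 65.7 TPM in Control replicates. The groups were well apart (0.49, SE 0.07, adjusted p = 0.00554).

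Mrpl20, Mrpl36 and Mrpl42 completed the large subunit genes among the 8 largest rises. Mrpl20, whose counterpart acts early in bacterial large subunit assembly, stood at 106, 115 and 138 TPM in Knockout and 84.3, 93.7 and 95.2 TPM in Control replicates (0.39, SE 0.10, adjusted p = 0.0276). The groups were apart, and the call was lost when any Control replicate or Knockout replicate 2 was left out. Mrpl36, also with a bacterial counterpart, stood at 78.2, 75.6 and 84.8 TPM in Knockout and 58.3, 63.0 and 62.6 TPM in Control replicates (0.37, SE 0.06, adjusted p = 0.00678). Mrpl42, found only in mitochondria, stood at 51.2, 51.5 and 61.1 TPM in Knockout and 38.2, 42.9 and 45.0 TPM in Control replicates (0.37, SE 0.09, adjusted p = 0.0228). Groups did not overlap for either gene, and the Mrpl42 call was lost without Control replicate 1 or 2.

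In the small subunit the largest rises were in Mrps21 and Mrps6, both with bacterial counterparts. Mrps21, one of the most abundant of all the genes, stood at 199, 222 and 247 TPM in Knockout and 149, 154 and 173 TPM in Control replicates. Each Knockout library exceeded each Control library (0.48, SE 0.09, adjusted p = 0.0103). Mrps6 stood at 40.9, 36.4 and 41.0 TPM in Knockout and 25.2, 28.3 and 31.6 TPM in Control replicates, again without overlap (0.46, SE 0.09, adjusted p = 0.0112). Mrps6 shares 19.9% of its exon bases with Gm49711 and 10.4% with Slc5a3, both on the same strand. Slc5a3 had a log2 fold change of 0.05, and Gm49711 has no fold change here, so the part of shared reads in the Mrps6 value was not tested. The other small subunit genes that rose were Mrps25, Mrps26, Mrps12 (a protein of the decoding centre), Mrps2 and Mrps7, by 0.21 to 0.34 on the log2 scale. The Mrps12 call was lost in 7 of 12 alternatives (upper-quartile scaling, limma-voom and each left-out library but Knockout replicate 2) and the Mrps2 call in 5 (upper-quartile scaling, and without Control or Knockout replicate 1, Control replicate 3 or Knockout replicate 2). The Mrps7 call did not survive leaving out Control replicate 2 or 3, nor the Mrps26 call leaving out Control replicate 1. Mrps25 averaged 19.7 ± 1.82 TPM in Knockout and 15.4 ± 0.613 TPM in Control libraries (SD, n = 3 each, adjusted p = 0.0178), but 69.8% of its exon bases overlap Nr2c2 on the opposite strand, whether counting used strand was not given in the sources used here, and its call was lost without Control replicate 2 or 3.

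All 5 genes that fell belong to the large subunit. They are 10.4% of its 48 genes, near the 10.1% called lower over all tested rows. Mrpl24, whose counterpart starts large subunit assembly in bacteria and lies at the tunnel exit, stood at 124, 108 and 107 TPM in Knockout replicates 1 to 3, against 161, 154 and 142 TPM in Control replicates 1 to 3 (-0.43, SE 0.07, limma adjusted p = 0.00828). Mrpl27, whose counterpart reaches towards the site of peptide bond formation in bacteria, stood at 95.6, 92.0 and 84.6 TPM in Knockout and 116, 112 and 118 TPM in Control replicates (-0.34, SE 0.06, adjusted p = 0.00729). In both genes every Knockout library lay below every Control library. Mrpl19, whose counterpart lies at the contact between the subunits, stood at 48.7, 46.8 and 44.1 TPM in Knockout and 58.4, 55.9 and 56.8 TPM in Control replicates (-0.29, SE 0.05, adjusted p = 0.00987).

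Mrpl32, known from yeast and mouse as a protein cut by a mitochondrial protease before it is built into the ribosome, stood at 30.2, 32.3 and 30.9 TPM in Knockout and 37.7, 36.1 and 40.1 TPM in Control replicates (-0.28, SE 0.06, adjusted p = 0.0133). Its groups were apart, and the call was lost without Control replicate 3. Mrpl43 stood at 21.9, 22.3 and 20.6 TPM in Knockout and 24.6, 24.1 and 25.2 TPM in Control replicates (-0.19, SE 0.05, adjusted p = 0.0397). That call was lost in 9 of 12 alternatives, among them each left-out library. Exon bases shared with an opposite-strand gene made up 26.3% of Mrpl24 (Rrnad1, log2 fold change 0.07), 36.0% of Mrpl19 (Gcfc2, -0.11) and 33.4% of Mrpl43 (Twnk, 0.45), so reads of these pairs cannot be told apart if counting ignored strand.

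**Figure D4:**
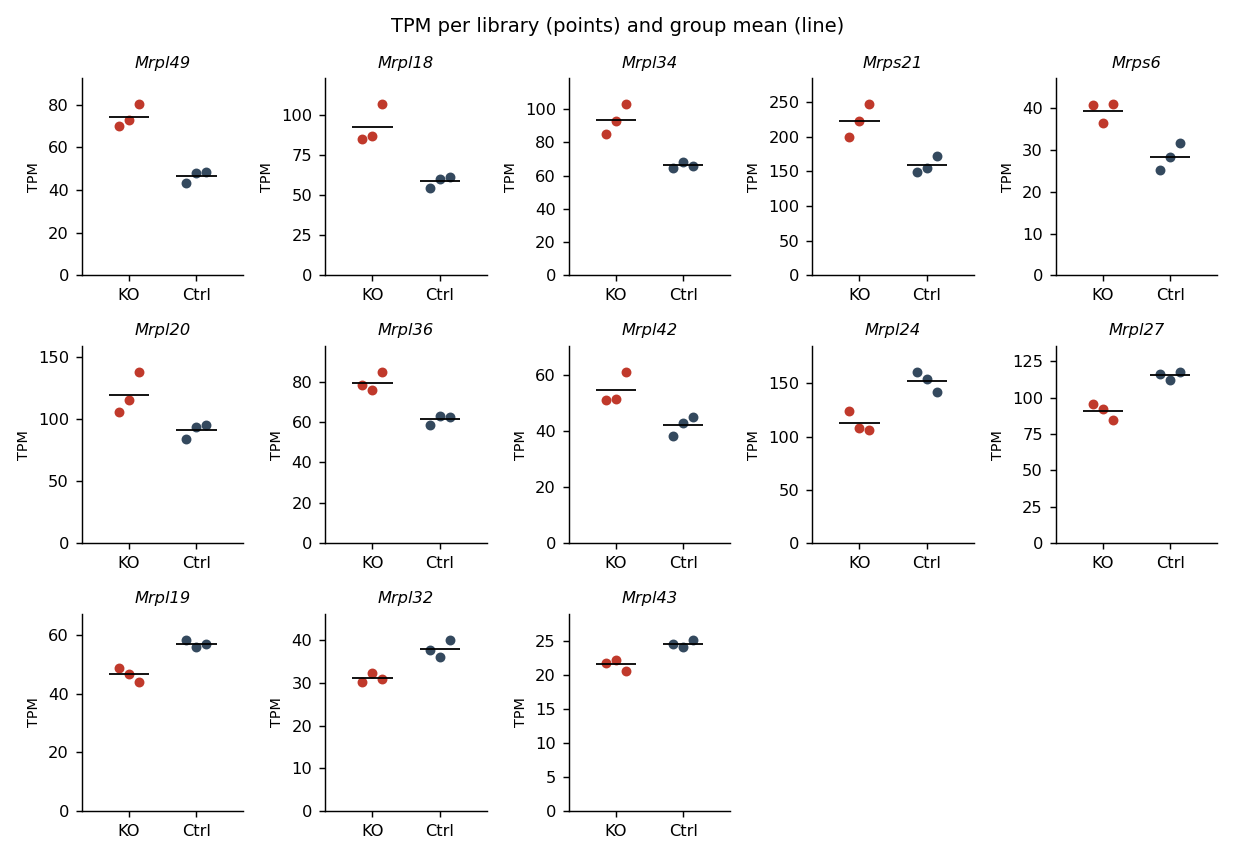
TPM in each library (points, y axes from 0) and group means (lines) for the 8 largest rises, Mrpl49 to Mrpl42, and the 5 falls, Mrpl24 to Mrpl43, with Knockout (KO) left of Control (Ctrl) in each panel. In all 13 genes the groups are apart, but the genes were picked by their calls, which favours such groups. Over all tested rows 30.2% had all Knockout libraries above all Control libraries and 19.8% had them below. Mrpl49 stands at 69.8 to 80.2 TPM in Knockout against 43.1 to 48.3 TPM in Control. Mrpl43 stands at 20.6 to 22.3 TPM against 24.1 to 25.2 TPM.

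By site in the large subunit, the stalk that recruits translation factors had 4 genes with a row, all with positive values and 2 called higher. Over all tested rows 18.5% were called higher and 10.1% lower, and differences between the sites named here were not tested. Mrpl11 at the stalk base rose by 0.35 on the log2 scale, to 32.0 ± 2.84 TPM in Knockout against 24.9 ± 0.554 TPM in Control libraries (SD, n = 3 each, adjusted p = 0.0125), and Mrpl54 rose by 0.27 (adjusted p = 0.0193). The Mrpl54 call was lost in limma-voom and without Control replicate 1, Control replicate 3 or Knockout replicate 2. Mrpl12, the repeated stalk protein, stood at 146, 151 and 187 TPM in Knockout and 139, 123 and 131 TPM in Control replicates. It missed the threshold (0.29, SE 0.10, adjusted p = 0.0614), with Knockout replicate 3 the widest apart, and was called when Knockout replicate 1 was left out, in limma-voom and with the replicate block.

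At the tunnel exit, 2 of 6 genes rose (Mrpl17 by 0.27 and Mrpl22 by 0.27), Mrpl24 fell, and Mrpl23, Mrpl45 and Mrpl47 were not called. The Mrpl22 call was lost without Knockout replicate 2. Mrpl45, which ties the ribosome to the inner membrane, averaged 93.8 ± 2.63 TPM in Knockout and 90.4 ± 3.85 TPM in Control libraries (SD, n = 3 each, adjusted p = 0.455). In the central protuberance, where mitochondrial proteins surround an RNA, 2 of 9 genes rose (Mrpl18 and Mrpl40) and Mrpl27 fell. These shares, 22.2% and 11.1%, were near the 18.5% higher and 10.1% lower of all tested rows. The other 6 genes there were not called, and the median of all 9 was -0.01. Mrpl58, a peptidyl-tRNA hydrolase that rescues stalled ribosomes, was among those 6, at 20.6 ± 1.31 TPM in Knockout and 22.9 ± 0.978 TPM in Control libraries (-0.15, adjusted p = 0.129). Mrpl3, which lies near the site of peptide bond formation, rose by 0.28 (adjusted p = 0.0107), to 40.0 ± 1.75 TPM in Knockout against 32.7 ± 1.03 TPM in Control libraries.

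Genes were also counted by whether bacteria have a counterpart. Among large subunit symbols 10 of 30 with a counterpart rose and 4 fell, with a median log2 fold change of 0.08. Of 18 sorted as mitochondria-specific 7 rose and 1 fell, with a median of 0.13. Among small subunit symbols 5 of 16 with a counterpart rose (median 0.13), against 2 of 13 sorted as mitochondria-specific (median 0.08), and 0 fell in either set. Those 13 include Mrps30, Mrps18a and Mrps36, which lie outside the small subunit. They also include Mrps18b, which like Mrps18a is a paralog of Mrps18c, a gene sorted as having a counterpart. Over all tested rows 18.5% were called higher and 10.1% lower, and the differences between these sets were not tested. Exon length here is the merged length of all annotated exons of a gene, not the length of a transcript. Among the 77 genes, those with a shorter exon length tended to have the higher fold changes. The rank correlation between exon length and log2 fold change was -0.27, against 0.01 across 12773 tested rows with a length. The median exon length was 1819 bp in genes that rose, 2255 bp in those that fell and 2660 bp in those not called, and the part of length in the fold changes was not tested.

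The mitochondrial ribosome has 5 listed proteins with other symbols. Ptcd3, which lies where mRNA enters the small subunit, rose to 52.9 ± 3.45 TPM in Knockout against 42.8 ± 3.69 TPM in Control libraries (SD, n = 3 each, log2 fold change 0.30, adjusted p = 0.0284). The GTP-binding protein gene Dap3 stood at 0.11, Chchd1 at 0.13, Gadd45gip1 at 0.23 and Aurkaip1 at -0.06, and none of these was called. Leaving out Control or Knockout replicate 1 or 3, or scaling by the upper quartile, ended the Ptcd3 call.

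Of 26 listed assembly and rRNA factors 2 rose (7.69%) and 2 fell (7.69%), with a median of -0.01, against 18.5% higher and 10.1% lower over all tested rows. Noa1, a GTPase of small subunit assembly, stood at 21.9, 22.0 and 24.9 TPM in Knockout and 17.6, 18.1 and 16.9 TPM in Control replicates (0.36, SE 0.07, limma adjusted p = 0.0103). Rpusd4, a pseudouridine synthase of the large subunit's rRNA, rose by 0.32 (adjusted p = 0.0198). Mettl17, a small subunit assembly factor, averaged 18.6 ± 1.79 TPM in Knockout and 24.1 ± 1.26 TPM in Control libraries (-0.36, adjusted p = 0.0170), and Ngrn, needed for the large subunit's rRNA, fell by 0.24 (adjusted p = 0.0224). The falls and the Rpusd4 rise were each lost without at least 1 library.

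Of 15 tested translation factors 3 rose and 1 fell (6.67%), with a median of 0.05, which is near the shares over all tested rows. Gfm1, the translocating elongation factor, rose to 84.3 ± 12.0 TPM in Knockout against 63.2 ± 2.77 TPM in Control libraries (SD, n = 3 each, 0.40, adjusted p = 0.0223). Tufm, which brings charged tRNA to the ribosome, rose by 0.26 (adjusted p = 0.0232) and Mtfmt, which formylates the initiator tRNA, by 0.21 (adjusted p = 0.0240). Mtif2, an initiation factor, fell by 0.27 (adjusted p = 0.0205). Mtfmt lost its call under both scalings, Tufm under upper-quartile scaling, and all 4 lost it without some single Control library. Among 12 tested regulators of mitochondrial gene expression 1 rose and 1 fell (8.33% each). Over all tested rows 18.5% were called higher and 10.1% lower. Pprc1, a coactivator related to PPARGC1A, rose to 39.8 ± 2.71 TPM in Knockout against 31.1 ± 0.729 TPM in Control libraries (0.34, adjusted p = 0.00880). Esrra was called lower at -0.23 (adjusted p = 0.0373), but only 1 of its 6 values was a whole read number at the annotated length, and the call was lost without the filter and without any single library other than Knockout replicate 3. Nrf1 and Gabpa, which encode factors named above for their motifs, stood at 0.14 and 0.11 and were not called (adjusted p = 0.279 and 0.264).

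The rRNA of the small subunit, mt-Rnr1, was lower at 1489, 1456 and 1302 TPM in Knockout replicates, against 1719, 1713 and 1749 TPM in Control replicates (-0.29, SE 0.06, adjusted p = 0.0129). That of the large subunit, mt-Rnr2, stood at 640, 625 and 731 TPM in Knockout and 595, 662 and 630 TPM in Control replicates, with overlapping groups and no call (0.08, adjusted p = 0.443). Levels of rRNA depend on how libraries were selected, which is not given in the sources used here, and reads shared with nuclear copies of mitochondrial DNA were not separated here. The mt-Rnr1 call was lost without Control replicate 3.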

How the data were processed

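The deposited table holds TPM values for 6 libraries. Its header states no unit, and TPM was inferred from column sums near the TPM total. Per the submitters' processing notes, GRCm39 and DESeq2 were used in a role that is not stated. No aligner, counter or annotation is named in the sources used here. Limma 3.58.1 in R 4.3.3 (trend and robust settings) was fitted to log2(TPM + 1) over the 13034 rows averaging 1 TPM or more; tests were two-sided, p-values were adjusted over these rows (Benjamini-Hochberg) and the threshold was 0.05. Fold changes on that scale understate changes of low genes. The fit was tested on simulated data without an outlying library and with changes larger than most rises found here. That test therefore does not speak to small changes or to the spread of Knockout replicate 3.

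Reads were recovered as TPM times exon length from GENCODE M21 (GRCm38, used for lengths, overlaps and neighbours) over each library's step. Within a tolerance of 0.02 read, 16483 of 17217 rows were whole in all 6 libraries. Replicates of a group differed by 5.44 to 55.4 times counting noise (chi-square per degree of freedom), and the pairs with Knockout replicate 3 stood highest.

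Genes and lists were chosen with earlier results of these data known. Genes given library by library are the 8 largest rises and all falls among calls, the 5 highest and 5 lowest levels, and those whose symbol and place differ or that are paralogs, some by mean and SD. Other genes are named as list or site members. Alternatives were a pseudocount of 0.1 TPM, no filter, 2 scalings, limma-voom on recovered reads, a replicate block, each library left out, and other subunit definitions. Same-numbered libraries did not deviate together throughout.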

Additional observations from a re-analysis of the deposited data

How the results depend on the processing

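Of the 29 genes called, 15 stayed called in all 12 alternatives, 14 lost the call in at least 1 and 0 changed sign. The fall of Mrpl43 and the rises of Mrpl30, Mrps12 and Mrpl50 were lost most often. Cd74 was lower in every alternative that gives it a value. With 1 library left out, genes that rose numbered 15 to 23 and those that fell 3 to 4, with 12 to 18 and 3 to 4 in the large and 3 to 6 and 0 in the small subunit. Over all rows the range was 1312 to 2094 higher and 666 to 1222 lower, and over assembly and translation factors 2 to 5 higher (5 with all libraries) and 0 to 4 lower (3). The median log2 fold change then ran from 0.092 to 0.12 in the large and 0.06 to 0.13 in the small subunit, and the difference in the large to small ratio (-0.04 with all libraries) from -0.06 to -0.02.

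Median-of-ratios scaling gave a large subunit median of 0.053 and 5 assembly and translation factors lower. Upper-quartile scaling gave medians of 0.037 for the large and 0.039 for the small subunit, with 3 such factors higher and 6 lower. Limma-voom gave a large subunit median of 0.072. A ratio of median levels in place of sums turned the difference to 0.055, within its own spread (SD 0.0939 in Knockout and 0.0674 in Control libraries, n = 3 each). The cause of these shifts was not tested.

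Correlations of deviations between libraries sharing a replicate number were 0.13, -0.08 and 0.03. These low values cannot settle whether the numbers pair the samples, since the labels do not give the animal or culture behind each replicate. With the replicate block 24 of the genes rose and 4 fell, with 17 and 4 in the large and 7 and 0 in the small subunit, and 2331 of all rows were higher and 1380 lower. Read counts per gene and library were as low as 376, and for the genes with the fewest reads counting error is not small beside the spread between libraries.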

Other observations

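Several of these genes start back to back with another gene. In GENCODE M21, 18 of the 77 have a protein-coding gene that starts within 1000 bp upstream on the opposite strand, and 17 of these neighbours were tested. Of the 17, 3 were called higher and 1 lower in Knockout libraries, near the 18.5% and 10.1% of all tested rows. Mrpl51 (0.34) lies beside Ncapd2, a condensin subunit gene that rose by 0.87 on the log2 scale (limma adjusted p = 0.00384), and Mrpl57 (0.06, not called) beside Ska3, a kinetochore gene that rose by 0.76 (adjusted p = 0.00759). Mrpl41 rose by 0.36 and its neighbour Pnpla7, which starts 935 bp away, by 0.40 (adjusted p = 0.0119). Mrpl54 rose by 0.27 while its neighbour Apba3 fell by 0.34 (adjusted p = 0.0488). Mrpl49, the largest rise of the class at 0.67, starts 59 bp from Fau, which encodes a cytosolic ribosomal protein and stood at -0.11 (adjusted p = 0.219). Across the 17 pairs the correlation of log2 fold changes was -0.11 (Pearson) and -0.01 (Spearman), a description of pairs measured in the same libraries.

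The rule left out 4 pseudogene rows, and sharing of reads between a gene and its copy was not tested. Mrpl48-ps stood at 5.27, 7.01 and 3.18 TPM in Knockout and 4.44, 3.92 and 6.23 TPM in Control replicates, with overlapping groups. Mrps36-ps1 stood at 1.09, 2.71 and 1.17 TPM in Knockout replicates, against 0, 0.204 and 0 TPM in Control replicates, a gene picked after its values were seen.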
